A study of Mus musculus with 10 samples.

Results

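The cathepsins examined here were 10 protease genes (Ctsb, Ctsc, Ctsd, Ctse, Ctsh, Ctsk, Ctsl, Ctss, Ctsw and Ctsz), selected by gene symbol from the 53342 genes of a mouse whole-lung RNA-seq table. The libraries fell into SF-3-030+HDM (3 libraries), in which the compound SF-3-030 was given into the nose at 10 mg/kg, 30 min before house dust mite allergen; HDM (3 libraries), which had the allergen with the solvent DMSO; and PBS (4 libraries), the saline control. Allergen was given intranasally on 5 days a week for 3 weeks, and all animals were labelled female BALB/c of 12 weeks. By the series title, the compound belongs to a function-selective approach to the kinases ERK1/2. The PBS label does not name DMSO, and no group had SF-3-030 without allergen. Levels are expected counts scaled to a common library total (CPM), and ± is the SD for levels and the SE for log2 fold changes.

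Cathepsins are proteases of lysosomes and endosomes, made as inactive precursors that are trimmed in the acid compartment. Ctsd and Ctse encode aspartic proteases, and the other members encode cysteine proteases of the papain family, which cystatins inhibit. In lung they are best known from macrophages, which use them to digest engulfed material and to prepare antigen for class II molecules. A major house dust mite allergen is itself a papain-like cysteine protease.

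Sequence upstream of the transcription start is shown for Ctsk, Ctss and Ctsz, the members with the largest called rises in HDM libraries among those with an entry in the RefSeq promoter table that lies outside the annotated gene. Each sequence is the 250 bases before the RefSeq start on GRCm38.p6, 5′ to 3′ on the gene's strand. Capitals mark GAGGAA, a core bound by the myeloid factor PU.1, or its reverse complement TTCCTC. Ctsk and Ctss are neighbours on chromosome 3, on the same strand, with 17423 bases between the end of Ctsk and the start of Ctss.
Ctsk, chr3:95498960-95499209, plus strand: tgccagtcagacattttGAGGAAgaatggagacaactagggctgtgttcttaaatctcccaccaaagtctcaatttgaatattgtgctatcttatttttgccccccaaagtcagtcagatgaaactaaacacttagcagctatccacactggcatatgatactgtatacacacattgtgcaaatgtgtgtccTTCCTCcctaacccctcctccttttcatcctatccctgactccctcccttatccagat
Ctss, chr3:95526536-95526785, plus strand: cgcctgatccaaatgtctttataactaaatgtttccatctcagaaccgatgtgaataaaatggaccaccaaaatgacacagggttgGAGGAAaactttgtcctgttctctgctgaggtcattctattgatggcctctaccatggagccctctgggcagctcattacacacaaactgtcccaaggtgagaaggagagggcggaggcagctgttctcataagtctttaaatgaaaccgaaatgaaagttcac
Ctsz, chr2:174439040-174439289, minus strand: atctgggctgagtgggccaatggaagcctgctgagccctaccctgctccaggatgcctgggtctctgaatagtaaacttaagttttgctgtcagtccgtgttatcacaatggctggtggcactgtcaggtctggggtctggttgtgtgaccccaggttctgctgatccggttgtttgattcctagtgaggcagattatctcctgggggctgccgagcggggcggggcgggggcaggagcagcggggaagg
Of the 6 members with a promoter entry, 3 (Ctsc, Ctsk and Ctss) held GAGGAA on either strand, against 23.3% of 32851 promoter windows of the same length. The E-box CACGTG, read by lysosome regulators of the TFEB and MITF family, was in the windows of Ctsd and Ctsl, against 6.02% of windows. Of the 250 bases, 211 in the Ctsd window and all 250 in the Ctsl window lie inside the gene as GENCODE annotates it. No member window held the STAT6 motif, found in 5.85% of windows, or TGANTCA, the AP-1 motif found in 6.75%. These matches describe letters and were not tested for binding. Ctsb, Ctse, Ctsh and Ctsw have no entry in that table.

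The libraries differed in ways that the labels do not give. H2-Ea-ps, a class II gene that some inbred strains do not express, had 331 to 432 CPM in each SF-3-030+HDM library, against 0.107 to 0.953 CPM in the remaining 7 libraries. Tpsab1 and Gbp2b were also high in SF-3-030+HDM libraries alone, and Trim12a was low in them alone, at 0.199 to 0.363 CPM against 18.7 to 30.6 CPM. SF-3-030 and this separation cannot be told apart in any comparison of SF-3-030+HDM libraries. The Y-linked gene Ddx3y was at 31.5 and 20.4 CPM in HDM replicates 2 and 3 and at 30.2 CPM in PBS replicate 2, all labelled female, and at 0.575 CPM or less elsewhere. Olfactory and vomeronasal receptor reads, taken as background, were at 16 to 32.6 CPM in SF-3-030+HDM, 90.4 to 230 CPM in HDM and 49.2 to 469 CPM in PBS libraries. No marker of alveolar type 2 or club cells was at 0 in any group. Summed expected counts ran from 38667118 to 59083942 per library.

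HDM against PBS compares repeated allergen and DMSO with saline, whose label does not name DMSO. Y-linked expression was in HDM replicates 2 and 3 and in PBS replicate 2. The part of DMSO in this comparison was not tested. Of the 10 cathepsins, 6 were higher in HDM (Ctsb, Ctsd, Ctse, Ctsk, Ctss and Ctsz) and none was lower, by edgeR's quasi-likelihood test with a Benjamini-Hochberg adjusted p under 0.05 over 26235 genes. All 10 had enough reads to be tested. The 6 are 60% of the members, where over all genes tested 2.61% were called, 2.32% as higher and 0.294% as lower. The median log2 fold change of the members was 1.18, against -0.09 over all genes tested. At an unadjusted p under 0.05, 7 members passed. In 8 of the 10 members every HDM library lay above every PBS library, and in the other 2 the groups overlapped. Over the genes tested, libraries did not overlap in 11.2%, with HDM higher in 5.28% and lower in 5.97%. The 10 genes together took 0.472% to 0.735% of all counts in SF-3-030+HDM, 0.55% to 0.634% in HDM and 0.244% to 0.295% in PBS libraries.

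**Figure D1:**
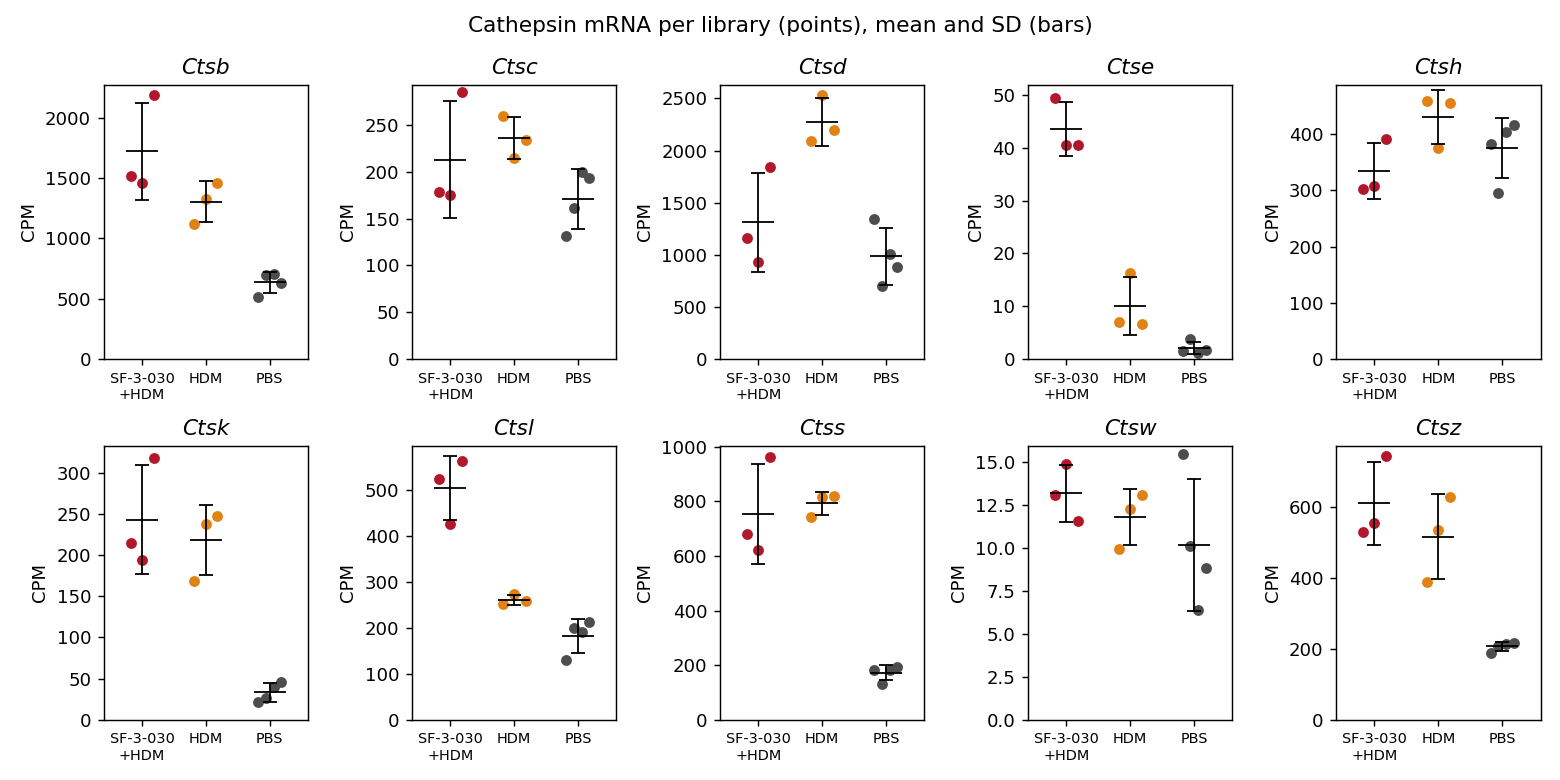
CPM of each cathepsin gene in every library, 1 panel per gene, with SF-3-030+HDM, HDM and PBS from left to right; points are libraries and bars are mean and SD (n = 3, 3 and 4). Ctsk and Ctss in both allergen groups stand clear of PBS, Ctse and Ctsl are highest in SF-3-030+HDM, and Ctsd is highest in HDM.

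Ctss encodes cathepsin S, which cuts the invariant chain from class II molecules in antigen-presenting cells. It lies at chr3:95526786-95556403 (GRCm38, plus strand). It was at 679, 621 and 962 CPM in SF-3-030+HDM replicates 1 to 3, 743, 817 and 818 CPM in HDM replicates 1 to 3, and 181, 131, 184 and 195 CPM in PBS replicates 1 to 4. All 6 allergen libraries were above all 4 PBS libraries. HDM exceeded PBS by 2.25 ± 0.22 on the log2 scale, 4.77-fold (edgeR, adjusted p = 0.000566), and this call held in all 22 alternatives. SF-3-030+HDM was 4.51-fold above PBS (2.17 ± 0.22, edgeR, adjusted p = 5.58e-05). SF-3-030+HDM and HDM overlapped, with a log2 difference of -0.08 ± 0.23, a 95% interval of -0.59 to 0.43 and an adjusted p of 0.855 by edgeR.

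Ctsk encodes cathepsin K, the collagen-degrading protease of osteoclasts, which some macrophages and fibroblasts also make. It lies at chr3:95499256-95509362 (plus strand). It was at 215, 194 and 318 CPM in SF-3-030+HDM replicates, 169, 238 and 247 CPM in HDM replicates, and 21.1, 26.3, 40.2 and 45.7 CPM in PBS replicates. The lowest allergen library was above the highest PBS library by a wide gap. HDM was 6.72-fold above PBS (2.75 ± 0.33, edgeR, adjusted p = 0.00147), called in all 22 alternatives (adjusted p up to 0.0474). SF-3-030+HDM stood 7.42-fold above PBS (2.89 ± 0.33, edgeR, adjusted p = 0.000133). Against HDM it differed by 0.14 ± 0.34 (95% interval -0.61 to 0.89, edgeR, adjusted p = 0.824), a direction that turned to -0.02 with upper-quartile scaling.

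Ctsz encodes cathepsin Z, a carboxypeptidase of monocytes and macrophages, at chr2:174427493-174439039 (minus strand). It was at 529, 555 and 744 CPM in SF-3-030+HDM replicates, 387, 535 and 627 CPM in HDM replicates, and 189, 208, 213 and 216 CPM in PBS replicates. The allergen groups overlapped each other and neither reached down to PBS. HDM was 2.59-fold above PBS (1.37 ± 0.22, edgeR, adjusted p = 0.00731). That call was lost without the 3 libraries with Y-linked expression (adjusted p = 0.425), which leaves 1 HDM library, and without the 3 with most background reads (0.0962), within a range of 1.66e-07 to 0.425 over the alternatives. SF-3-030+HDM was 3.03-fold above PBS (1.60 ± 0.22, edgeR, adjusted p = 0.00051) and differed from HDM by 0.23 ± 0.24 (95% interval -0.30 to 0.75, adjusted p = 0.57).

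Ctsb encodes cathepsin B, an abundant lysosomal endopeptidase that also trims dipeptides from protein ends, at chr14:63122462-63145923 (plus strand). It was at 1515, 1458 and 2189 CPM in SF-3-030+HDM replicates, 1123, 1325 and 1460 CPM in HDM replicates, and 514, 700, 704 and 629 CPM in PBS replicates. SF-3-030+HDM replicate 2 was just under HDM replicate 3, so the allergen groups overlapped. HDM was 2.11-fold above PBS (1.07 ± 0.23, edgeR, adjusted p = 0.0315). A replicate block (edgeR, adjusted p = 0.055) and a covariate for Y-linked expression (0.13) each ended that call. Leaving out any one of PBS replicate 3 or 4, HDM replicate 2 or 3, or SF-3-030+HDM replicate 1 ended that call (adjusted p 0.0532 to 0.159, within 0.000141 to 0.661 over all alternatives). SF-3-030+HDM was 2.77-fold above PBS (1.47 ± 0.23, edgeR, adjusted p = 0.00117; 0.0544 with a covariate for background reads, the highest of the alternatives), and 0.39 ± 0.25 above HDM without passing (95% interval -0.16 to 0.94, adjusted p = 0.328). The longest single exon overlap of Ctsb with Fdft1, on the opposite strand, is 774 bases. Fdft1 was at 41.7 to 61.4 CPM, and the counting of strand is not given in the sources used here.

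Ctsd encodes cathepsin D, the main aspartic protease of lysosomes, at chr7:142375911-142388038 (minus strand). It was at 1166, 927 and 1841 CPM in SF-3-030+HDM replicates, 2090, 2538 and 2200 CPM in HDM replicates, and 1344, 702, 1008 and 881 CPM in PBS replicates. HDM libraries were above all others, while SF-3-030+HDM and PBS libraries overlapped. HDM exceeded PBS 2.44-fold (1.29 ± 0.27, edgeR, adjusted p = 0.0254). Upper-quartile scaling (edgeR, adjusted p = 0.0581), a replicate block (0.12) and a covariate for Y-linked expression (0.0756) each ended that call. This call was lost without PBS replicate 2, 3 or 4 or HDM replicate 2 (adjusted p 0.0515 to 0.12), within 0.000151 to 0.649 over all alternatives. In SF-3-030+HDM the level was 0.80 ± 0.29 below HDM on the log2 scale (log2 fold change -0.80, 95% interval -1.43 to -0.17), which missed the threshold (edgeR, adjusted p = 0.0943). It passed without SF-3-030+HDM replicate 3 (0.0264) and with DESeq2 (0.0257), within a range up to 0.59. Against PBS, SF-3-030+HDM differed by 0.49 ± 0.27 (adjusted p = 0.186). Gm49369, on the same strand, has a longest single exon overlap of 227 bases with Ctsd. Gm49369 was at 43.1 to 132 CPM in SF-3-030+HDM, 132 to 210 CPM in HDM and 60.8 to 106 CPM in PBS libraries.

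SF-3-030+HDM against HDM sets allergen with the compound beside allergen without it. The compound cannot be told apart here from the separation of the SF-3-030+HDM libraries described above. This comparison called 2 of the 10 cathepsins, Ctse and Ctsl, both higher, and none lower. Over all genes tested 9.49% were called, 3.43% as higher and 6.06% as lower. The 2 genes are 20% of the members. Libraries did not overlap for 3 members, of which 2 were higher and 1 (Ctsd) was lower; over the genes tested this held for 37.6%, with SF-3-030+HDM higher in 15.1% and lower in 22.4%. The members' median log2 fold change was 0.14, against -0.03 over all genes tested, and 3 members had an unadjusted p under 0.05. This comparison shares its HDM libraries with HDM against PBS.

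Ctse encodes cathepsin E, an aspartic protease of endosomes known from gastric mucosa and immune cells, at chr1:131638306-131675505 (plus strand). It was at 49.5, 40.6 and 40.6 CPM in SF-3-030+HDM replicates, 6.99, 16.3 and 6.59 CPM in HDM replicates, and 1.57, 3.72, 1.13 and 1.8 CPM in PBS replicates. The 3 groups did not overlap. Of the libraries with Y-linked expression, HDM replicate 2 and PBS replicate 2 were the highest of their groups and HDM replicate 3 was the lowest of its group. SF-3-030+HDM was 4.18-fold above HDM (2.06 ± 0.46, edgeR, adjusted p = 0.0214). That call was lost without HDM replicate 1 or 3 or any one SF-3-030+HDM replicate (adjusted p 0.0555 to 0.0751), and with a covariate for background reads (0.163), within 0.000156 to 0.163. HDM was 5.09-fold above PBS (2.35 ± 0.43, edgeR, adjusted p = 0.0133), a call lost without HDM replicate 2 (3.23-fold, 0.0729), within 1.65e-06 to 0.101. Without that replicate SF-3-030+HDM was 6.63-fold above HDM (2.73, edgeR, adjusted p = 0.00882), and 6.5-fold above it when the 3 Y-linked libraries were left out (7.26-fold with a covariate for them). SF-3-030+HDM was 21.3-fold above PBS (4.41 ± 0.46, edgeR, adjusted p = 6.77e-05), called in all 22 alternatives. Stomach markers summed to 2 to 5.27 CPM in SF-3-030+HDM, 2.89 to 11.7 CPM in HDM and 2.93 to 8.55 CPM in PBS libraries; their part in the Ctse values was not tested.

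Ctsl encodes cathepsin L, a broadly made endopeptidase of lysosomes, at chr13:64359337-64370890 (minus strand). It was at 524, 427 and 563 CPM in SF-3-030+HDM replicates, 252, 274 and 258 CPM in HDM replicates, and 130, 199, 191 and 213 CPM in PBS replicates. Again the 3 groups did not overlap. SF-3-030+HDM exceeded HDM 1.91-fold (0.93 ± 0.25, edgeR, adjusted p = 0.0387). The call was lost without PBS replicate 4, or without any one HDM or SF-3-030+HDM replicate (adjusted p 0.051 to 0.12), within 0.00266 to 0.329 over all alternatives. HDM exceeded PBS by 0.55 ± 0.23 without passing (edgeR, adjusted p = 0.361). The SF-3-030+HDM rise over PBS was 2.79-fold (1.48 ± 0.23, edgeR, adjusted p = 0.000919) and called in all 22 alternatives.

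**Figure D2:**
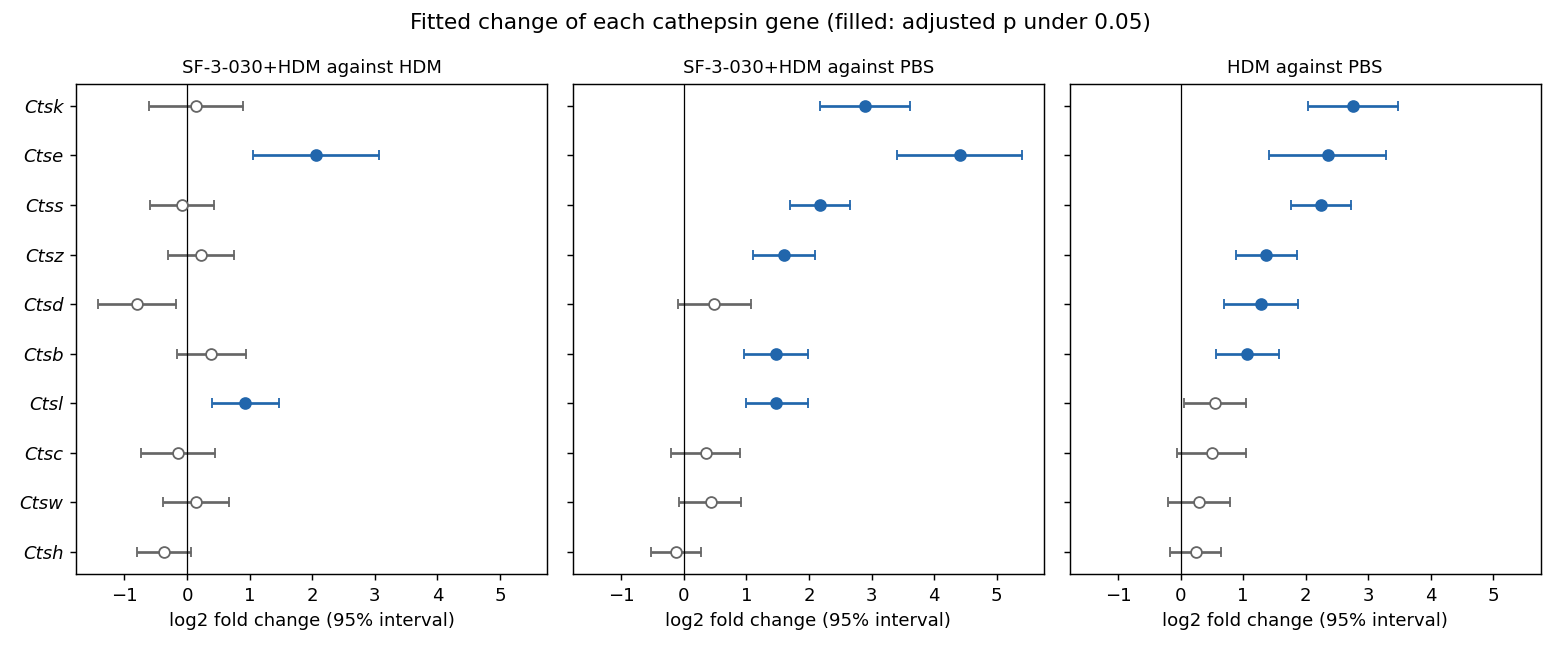
Log2 fold change of each cathepsin gene with its 95% interval for SF-3-030+HDM against HDM, SF-3-030+HDM against PBS and HDM against PBS; filled points have an adjusted p under 0.05 by edgeR. Ctse (2.06) and Ctsl (0.93) are the filled points against HDM, while 6 members are filled in each comparison with PBS.

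SF-3-030+HDM against PBS combines allergen, compound and the separation of the SF-3-030+HDM libraries, which cannot be told apart. This comparison called 6 members higher, 60% of them (Ctsb, Ctse, Ctsk, Ctsl, Ctss and Ctsz), and none lower. Over all genes tested 29.9% were called, 11.8% as higher and 18.1% as lower. For the same 6 members every SF-3-030+HDM library was above every PBS library, and the other 4 overlapped. Over the genes tested, libraries did not overlap in 38.8%, with SF-3-030+HDM higher in 17% and lower in 21.8%. The median log2 fold change was 1.48, against -0.11 over all genes tested. In Ctsb, Ctsc, Ctsd, Ctsh, Ctsk, Ctsl, Ctss and Ctsz, SF-3-030+HDM replicate 3 was the highest library of its group. Its summed macrophage markers were also the highest of its group, at 1728 CPM against 1003 and 944 CPM in replicates 1 and 2; their part in these values was not tested.

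Ctsc, Ctsh and Ctsw passed in no comparison. Ctsc encodes dipeptidyl peptidase I, which trims granule serine proteases to their active form, and lies at chr7:88278085-88310888. It averaged 213 ± 62.8 CPM in SF-3-030+HDM, 236 ± 22.7 CPM in HDM and 171 ± 31.8 CPM in PBS (n = 3, 3 and 4). All HDM libraries were above PBS (215 to 260 against 131 to 200 CPM), but the difference of 0.50 ± 0.25 did not pass (edgeR, adjusted p = 0.545). Ctsh, at chr9:90054152-90076089, encodes an aminopeptidase that alveolar type 2 cells use to process surfactant protein B. It averaged 334 ± 49.8 CPM in SF-3-030+HDM, 430 ± 47.6 CPM in HDM and 375 ± 54 CPM in PBS, with overlapping groups. HDM minus PBS was 0.24 ± 0.18 (95% interval -0.16 to 0.65) and SF-3-030+HDM minus HDM was -0.37 ± 0.20 (-0.80 to 0.06). Summed alveolar type 2 markers ran from 25885 to 34582 CPM in SF-3-030+HDM, 37837 to 54964 CPM in HDM and 38635 to 50978 CPM in PBS libraries. In that list of 9, 2 genes were lower in SF-3-030+HDM than in HDM, where 6.06% of all genes tested were called lower. The part of these cells in the Ctsh values was not tested. Ctsw, at chr19:5465043-5468507, encodes a protease of natural killer and cytotoxic T cells. It averaged 13.2 ± 1.66 CPM in SF-3-030+HDM, 11.8 ± 1.64 CPM in HDM and 10.2 ± 3.84 CPM in PBS, where PBS replicate 1, at 15.5 CPM, was the highest of all libraries. Without that replicate SF-3-030+HDM against PBS passed (edgeR, adjusted p = 0.0464, range 0.0464 to 0.639), while with it the difference was 0.43 ± 0.23 (adjusted p = 0.171). Summed markers of cytotoxic lymphocytes were at 120 to 150 CPM in SF-3-030+HDM, 94.3 to 111 CPM in HDM and 69.8 to 134 CPM in PBS libraries. Of these 12 genes, 2 were higher and 1 was lower in SF-3-030+HDM than in HDM, with a median log2 fold change of 0.02. Over all genes tested, 3.43% were called higher and 6.06% lower. The part of cytotoxic lymphocytes in the Ctsw values was not tested.

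Levels of different genes were compared per kilobase of the longest principal transcript. On this scale Ctsd was the highest member in every group, at 616 ± 223 CPM per kb in SF-3-030+HDM, 1070 ± 110 in HDM and 462 ± 127 in PBS. Ctse or Ctsw was the lowest. The order from high to low in HDM was Ctsd, Ctss, Ctsz, Ctsb, Ctsh, Ctsk, Ctsc, Ctsl, Ctsw and Ctse, with overlap between Ctsz and Ctsb and between Ctsb and Ctsh. In SF-3-030+HDM it was Ctsd, Ctss, Ctsz, Ctsb, Ctsh, Ctsk, Ctsc, Ctsl, Ctse and Ctsw, and the ranges of Ctsd and Ctss, Ctss and Ctsz, Ctsz and Ctsb, Ctsh and Ctsk, and Ctsc and Ctsl overlapped. In PBS it was Ctsd, Ctsh, Ctsz, Ctsb, Ctss, Ctsc, Ctsl, Ctsk, Ctsw and Ctse, with overlap between Ctsz and Ctsb, Ctsb and Ctss, and Ctsl and Ctsk. The other neighbours in each order did not overlap. Ctsl has 2 principal transcripts of 6168 and 1971 bases, and with the shorter one it ranked 5 in SF-3-030+HDM, 7 in HDM and 6 in PBS. Per base of all exons, Ctsh ranked 7, 6 and 5 in those groups instead of 5, 5 and 2.

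The make-up of the family differed between groups on the same per-kilobase scale. Ctss made up 22.1 ± 0.162% of the 10 members' summed level in SF-3-030+HDM, 20.6 ± 0.547% in HDM and 10.3 ± 0.901% in PBS. Ctsk made up 6.33 ± 0.151%, 5.03 ± 0.621% and 1.8 ± 0.586% in the same groups. These shares in PBS lay below those of all allergen libraries. Ctsh went the other way, at 8.31 ± 0.847% in SF-3-030+HDM, 9.4 ± 1.6% in HDM and 18.8 ± 1.37% in PBS. Ctsd held 24 ± 2.88% in SF-3-030+HDM, 37.6 ± 2.63% in HDM and 37.2 ± 6.82% in PBS, with the first group below both others. Shares of 1 sum depend on one another and were not tested.

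**Figure D3:**
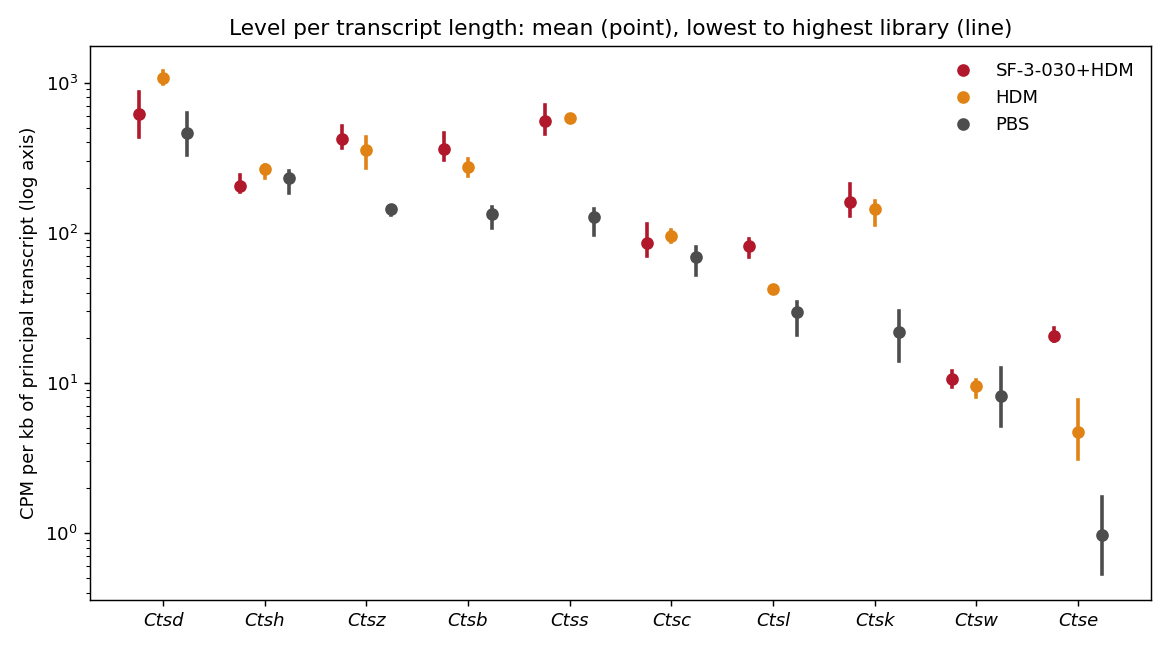
Mean level (point) and lowest to highest library (line) of each cathepsin gene in CPM per kilobase of principal transcript, on a log axis, by group. Genes run in their PBS order; Ctss and Ctsk lie above PBS in both allergen groups, and Ctse stands at 20.5 in SF-3-030+HDM, 4.69 in HDM and 0.966 in PBS.

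Bulk lung RNA does not tell more cells of a type from more RNA per cell. The 12 macrophage markers summed to 944 to 1728 CPM in SF-3-030+HDM, 1182 to 1433 CPM in HDM and 390 to 623 CPM in PBS libraries, with no marker at 0 in any group. In HDM against PBS 6 of the 12 were higher and none lower, where 2.32% of all genes tested were called higher and 0.294% lower. In SF-3-030+HDM against HDM none was higher and 1 was lower, the scavenger receptor gene Marco, at -6.25 ± 0.66 (edgeR, adjusted p = 0.000196). In that comparison 3.43% of all genes tested were called higher and 6.06% lower. Divided by the macrophage sum of the same library, Ctss averaged 0.63 ± 0.0649 in SF-3-030+HDM, 0.616 ± 0.065 in HDM and 0.353 ± 0.0566 in PBS. For Ctsk this ratio was 0.201 ± 0.0157, 0.169 ± 0.0341 and 0.0685 ± 0.0246 in those groups. For both genes the ratios in the 6 allergen libraries were all above those in PBS. These ratios depend on the markers summed. In HDM against PBS, C1qa (2.29), C1qb (2.26), C1qc (2.42) and Msr1 (2.48) had log2 fold changes above the 2.25 of Ctss. The remaining markers had smaller ones, down to -0.69 for Marco, and the 2.75 of Ctsk was above all 12. Ctsh and Ctsc had lower ratios in HDM than in PBS. The ratio of Ctsh was 0.317 to 0.363 in HDM and 0.649 to 0.918 in PBS libraries. That of Ctsc was 0.163 to 0.205 in HDM and 0.254 to 0.426 in PBS libraries. For Ctsl the ratio was 0.326 to 0.522 in SF-3-030+HDM, 0.18 to 0.231 in HDM and 0.251 to 0.51 in PBS libraries, so that HDM was below both other groups, which overlapped. The ratio of Ctsz averaged 0.515 ± 0.0797 in SF-3-030+HDM, 0.398 ± 0.0809 in HDM and 0.43 ± 0.0906 in PBS, and HDM and PBS overlapped, as they did for Ctsb and Ctsd. Ctsd was at 1.07 ± 0.0906 in SF-3-030+HDM, 1.78 ± 0.325 in HDM and 1.99 ± 0.431 in PBS, with SF-3-030+HDM below all other libraries. The 7 osteoclast markers summed to 186 to 274 CPM in SF-3-030+HDM, 205 to 220 CPM in HDM and 77.2 to 110 CPM in PBS libraries. In HDM against PBS 3 of them (Acp5, Atp6v0d2 and Dcstamp) were higher and none lower, while Mmp9 (-0.93), Oscar (-0.50) and Calcr (-0.42) had negative log2 fold changes that did not pass. Against PBS, SF-3-030+HDM had 4 of them higher and 1 (Oscar, -3.38) lower. The 8 fibroblast markers summed to 2228 to 2844 CPM in SF-3-030+HDM, 2276 to 3441 CPM in HDM and 1556 to 2104 CPM in PBS libraries. Their median log2 fold change in HDM against PBS was 0.02, with 1 collagen gene (Col3a1) higher and none lower. Against PBS, SF-3-030+HDM had 2 collagen genes (Col3a1 and Col1a2) higher and 3 genes (Dcn, Lum and Pdgfrb) lower. Over all genes tested, 11.8% were called higher and 18.1% lower in SF-3-030+HDM against PBS. The part of cell numbers in these values was not tested.

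**Figure D4:**
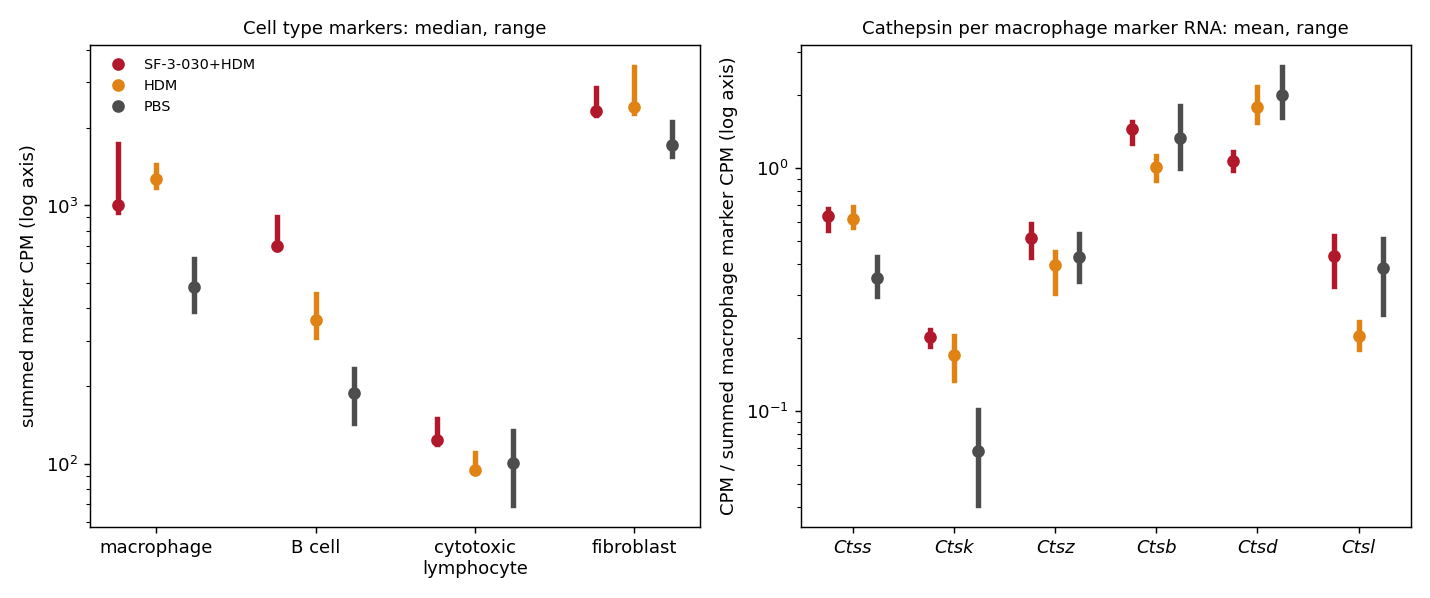
Left, summed marker CPM of 4 cell types by group (point, median; line, lowest to highest library; log axis). Right, cathepsin CPM divided by the summed macrophage marker CPM of the same library (point, mean; line, range; log axis), where Ctss and Ctsk stay above PBS in both allergen groups.

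Markers of other cells also moved with the groups. B cell markers summed to 681 to 900 CPM in SF-3-030+HDM, 311 to 455 CPM in HDM and 144 to 234 CPM in PBS libraries, with 5 of 7 genes higher in SF-3-030+HDM than in HDM and none lower. Over all genes tested, 3.43% were called higher in SF-3-030+HDM than in HDM. Ctse and Ctsl had the same order of groups as the B cell sum, without overlap between groups. So did Dnase2a, Mitf, H2-DMb2, Mcpt1, Mcpt2 and Fcer2a, the last of which is in that sum. The means of Ctsb, Ctsk, Ctsz and Ctsw had the same order, but their groups overlapped. In 15.1% of all genes tested every SF-3-030+HDM library lay above every HDM library. The share of genes with the full order of groups was not counted. T cell markers summed to 189 to 217, 166 to 216 and 71.5 to 122 CPM in SF-3-030+HDM, HDM and PBS, and dendritic cell markers to 207 to 234, 212 to 261 and 126 to 213 CPM. Neutrophil markers were at 255 to 303, 77.3 to 142 and 137 to 383 CPM, club cell markers at 18564 to 24086, 17018 to 22774 and 26193 to 46318 CPM, and heart markers at 147 to 232, 338 to 517 and 361 to 893 CPM in the same order of groups. Squamous epithelial markers reached 16.3 CPM and thymocyte markers 13.9 CPM. Their part in the cathepsin values was not tested.

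Among genes around the cathepsins, 13 further cathepsin genes were listed and 3 (Ctsa, Ctsf and Ctso) had enough reads to test. None passed between HDM and PBS or between SF-3-030+HDM and HDM, where 2.61% and 9.49% of all genes tested were called. Ctsa was higher in SF-3-030+HDM than in PBS, where 11.8% of all genes tested were called higher. Of 21 listed inhibitors, 10 were tested. In HDM against PBS 1 was higher and 1 lower, with a list median of -0.10. Over all genes tested, 2.32% were called higher and 0.294% lower in that comparison. Cst7, an endosomal cystatin of leukocytes, averaged 6.26 ± 1.2 CPM in SF-3-030+HDM, 5.28 ± 0.65 CPM in HDM and 2.28 ± 0.949 CPM in PBS. Its rise in HDM over PBS of 1.28 ± 0.29 (edgeR, adjusted p = 0.041) was lost without PBS replicate 3 or 4 or without any one HDM or SF-3-030+HDM replicate (adjusted p 0.0525 to 0.148, range over alternatives 0.00265 to 0.468). Its rise of 1.52 ± 0.29 in SF-3-030+HDM over PBS (edgeR, adjusted p = 0.00377) was not lost. Cst8, a cystatin known from the male reproductive tract, was lower in HDM, at 0.981 ± 0.116 CPM, than in PBS, at 9.54 ± 3.03 CPM (-3.23 ± 0.35, edgeR, adjusted p = 0.00103). Cst3, the secreted cystatin C, was at 910 ± 22.7 CPM in HDM and 873 ± 156 CPM in PBS and did not pass (0.13 ± 0.16, edgeR, adjusted p = 0.979). Cstb, a cytosolic inhibitor, was at 107 ± 11.3 CPM in SF-3-030+HDM, 96.7 ± 34.1 CPM in HDM and 53.6 ± 4.13 CPM in PBS. It passed in SF-3-030+HDM against PBS (1.03 ± 0.23, edgeR, adjusted p = 0.00798; 0.0926 with the background covariate, the highest of the alternatives), while HDM against PBS gave 0.0677, and 0.0192 without HDM replicate 1 (range 0.00467 to 0.768). Serpinb13, a serpin that inhibits cathepsins, had no read in SF-3-030+HDM and 42.4 counts in HDM. With 3 counts over the group as the floor it was at least 15.2-fold lower in SF-3-030+HDM (edgeR, adjusted p = 0.0409). That call was lost without PBS replicate 4 or any one HDM or SF-3-030+HDM replicate (adjusted p 0.0516 to 0.114, range 0.00224 to 0.242), and with the background covariate (0.097). Its levels were highest in the 3 libraries with most background reads, at 0.469 CPM in HDM replicate 3 and at 0.87 and 0.353 CPM in PBS replicates 1 and 4, against 0.19 CPM or less elsewhere.

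Of 16 genes that sort enzymes to lysosomes, 1 was higher in HDM than in PBS and none lower, and none passed between SF-3-030+HDM and HDM. That gene was Psap, which encodes the saposin precursor, at 3222 ± 430 CPM in HDM and 1453 ± 222 CPM in PBS (1.20 ± 0.21, edgeR, adjusted p = 0.0105). Of 32 other lysosome genes, 3 were higher in HDM than in PBS and none lower, with a median of 0.48. Beside both lists, 2.32% of all genes tested were called higher in HDM than in PBS and 0.294% lower. Acp5, an acid phosphatase of osteoclasts and macrophages, differed by 1.81 ± 0.23 (edgeR, adjusted p = 0.00221). Atp6v0d2, a proton pump subunit of the same cells, differed by 1.93 ± 0.32 (edgeR, adjusted p = 0.00834). Acp5 and Atp6v0d2 are also among the osteoclast markers above, so these calls are counted in both lists. Lgmn, the asparaginyl protease legumain that processes cathepsins, differed by 0.83 ± 0.22 (edgeR, adjusted p = 0.0887). It passed without SF-3-030+HDM replicate 3 (0.0357, range 0.00641 to 0.728), and SF-3-030+HDM was above PBS by 1.17 ± 0.22 (edgeR, adjusted p = 0.00367; 0.099 with the background covariate). Without the 3 libraries with Y-linked expression the calls of Psap (0.463) and Acp5 (0.0871) were lost, and without those with most background reads those of Atp6v0d2 (0.0528) and Psap (0.133). The highest adjusted p over the alternatives was 0.463 for Psap, 0.0871 for Acp5 and 0.0528 for Atp6v0d2. Against HDM, SF-3-030+HDM had 1 lysosome gene higher and 1 lower, where 3.43% of all genes tested were called higher and 6.06% lower. Dnase2a, the lysosomal DNase, was at 76.2 ± 2.14 CPM in SF-3-030+HDM and 42 ± 5.55 CPM in HDM (0.84 ± 0.17, edgeR, adjusted p = 0.013), a call lost without HDM replicate 2 or SF-3-030+HDM replicate 2 (0.061 and 0.0534, range 0.00037 to 0.165). Gaa, acid alpha-glucosidase, was at 95.6 ± 7.67 CPM in SF-3-030+HDM and 156 ± 3.08 CPM in HDM (-0.73 ± 0.18, edgeR, adjusted p = 0.03). That call was lost without any one HDM replicate or SF-3-030+HDM replicate 1 or 2 (adjusted p 0.0504 to 0.13, range 0.000499 to 0.349). Against PBS, SF-3-030+HDM had 12 of the 32 lysosome genes higher and 2 lower, where 11.8% of all genes tested were called higher and 18.1% lower.

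Of 5 regulators of lysosome genes, none passed in HDM against PBS and 2 were higher in SF-3-030+HDM than in HDM. Over all genes tested, 3.43% were called higher in SF-3-030+HDM than in HDM. Tfe3, a transcription factor of the TFEB family, was at 90.3 ± 6.72 CPM in SF-3-030+HDM and 49 ± 6.74 CPM in HDM (0.87 ± 0.16, edgeR, adjusted p = 0.00865; 0.104 without the libraries with Y-linked expression, range 3.05e-05 to 0.104). Mitf, of the same family, was at 20.7 ± 0.806 CPM in SF-3-030+HDM and 11.4 ± 2.8 CPM in HDM (0.85 ± 0.24, edgeR, adjusted p = 0.048). The Mitf call was lost without PBS replicate 2 or 4, HDM replicate 2 or 3, or any one SF-3-030+HDM replicate (adjusted p 0.0511 to 0.149, range 0.0073 to 0.529).

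Of 13 genes listed for antigen presentation, 10 were higher in HDM than in PBS and none lower. Most of the 13 belong to the class II pathway, in which Ctss and Ctsl take part. Cd1d1 and Fcer2a are not class II genes, and Fcer2a is also among the B cell markers. The median log2 fold change of the list was 1.11, and 2.32% of all genes tested were called higher. H2-DMb2, a chain of the peptide exchanger H2-M, was at 186 ± 23.8 CPM in SF-3-030+HDM, 96.4 ± 20.1 CPM in HDM and 40.3 ± 11.8 CPM in PBS. HDM exceeded PBS by 1.33 ± 0.23 (edgeR, adjusted p = 0.0104), a call lost without HDM replicate 2 (0.0642, range 8.9e-06 to 0.267). SF-3-030+HDM exceeded HDM by 0.92 ± 0.25 (edgeR, adjusted p = 0.0438), lost without PBS replicate 4 or any one HDM or SF-3-030+HDM replicate (adjusted p 0.0592 to 0.131, range 0.0113 to 0.153). Ifi30, the lysosomal thiol reductase, was at 224 ± 75 CPM in HDM and 96.6 ± 8.63 CPM in PBS (1.25 ± 0.22, edgeR, adjusted p = 0.0105; range 4.99e-06 to 0.56, highest without the libraries with Y-linked expression). Fcer2a, the low-affinity IgE receptor of B cells, was at 111 ± 13.1 CPM in SF-3-030+HDM and 33.5 ± 10 CPM in HDM (1.69 ± 0.37, edgeR, adjusted p = 0.0208). Its call was lost without HDM replicate 1 or 3 or any one SF-3-030+HDM replicate (adjusted p 0.0527 to 0.0759, range 0.000214 to 0.182), while without the libraries with Y-linked expression the log2 fold change was 2.38. Fcer2a and H2-DMb2 were the only ones of the 13 that passed between these groups, and the list median was -0.23. Over all genes tested, 3.43% were called higher in SF-3-030+HDM than in HDM. Against PBS, SF-3-030+HDM had 7 of the 13 higher and none lower, with a median of 0.75, while HDM had 10 higher. In SF-3-030+HDM against PBS 11.8% of all genes tested were called higher.

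Granule serine proteases are made as precursors, and Ctsc is known to activate several of them. Of 14 tested, 2 were higher in HDM than in PBS and 7 were higher in SF-3-030+HDM than in HDM, with none lower in either. Over all genes tested, 2.32% were called higher in the first comparison and 3.43% in the second. Mcpt1 and Mcpt2, chymase-like proteases of mucosal mast cells, spread widely among HDM libraries. Mcpt1 was at 1.12 to 9.56 CPM in HDM and 0.0677 to 0.2 CPM in PBS (5.30 ± 0.71, edgeR, adjusted p = 0.00253; 0.0924 with limma-voom, the lowest being 1.57e-09). Mcpt2 was at 1.27 to 5.49 CPM in HDM and 0.0339 to 0.16 CPM in PBS (4.75 ± 0.59, edgeR, adjusted p = 0.00179). Without HDM replicate 3 the log2 fold changes were 4.04 for Mcpt1 and 3.75 for Mcpt2, and without the libraries with Y-linked expression 3.15 and 3.69. Mcpt4, a connective tissue mast cell chymase, was at 7.64 ± 1.21 CPM in SF-3-030+HDM and 0.844 ± 0.453 CPM in HDM (3.16 ± 0.42, edgeR, adjusted p = 0.000974), with a log2 fold change of 4.37 without the libraries with Y-linked expression. Tpsab1, a mast cell tryptase, was at 14.2 ± 2 CPM in SF-3-030+HDM and 0.168 ± 0.107 CPM in HDM (6.40 ± 0.65, edgeR, adjusted p = 0.00014), with 8.16 under the background covariate. Tpsab1 is also among the genes that separated the SF-3-030+HDM libraries from all others.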

How the data were processed

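RNA of whole mouse lung was sequenced on an Illumina HiSeq after mRNA enrichment, per the labels' protocols. Trimmomatic 0.36, STAR 2.5.2b and GRCm38 are named in the submitters' processing notes. The authors deposited 1 table of 53342 genes with expected counts and log2 values per library, per the file headers. The deposited log2 values were not used. For the counting tool and the strand of the libraries, nothing is given in the sources used here. Blank cells (34.4%) were read as 0, and 86.9% to 90.6% of filled cells were not whole at a tolerance of 0.001. Summed expected counts of 38667118 to 59083942 give counting precision only. The labels do not say that replicates are separate animals, so p-values measure the spread between these samples, which may be technical.

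Expected counts were rounded and fitted with edgeR 4.0.16 in R 4.3.3 (filterByExpr, 26235 genes, all 10 cathepsins among them; TMM; 1 quasi-likelihood fit of the 3 groups; two-sided contrasts; Benjamini-Hochberg over all genes tested, threshold 0.05; tested on simulated data). Each SE was taken as the fitted change divided by the root of its F statistic. Positions and transcript lengths come from GENCODE M21, which holds 53237 of the identifiers, and promoters from RefSeq. The 22 alternatives were scaling by RLE or by the upper quartile, limma-voom (limma 3.58.1), DESeq2 1.42.0, 2 filters, fits of the compared groups only, a replicate block, leaving out each library, and fits that drop or adjust for Y-linked or background reads; dropping the 3 libraries with most background reads was chosen after seeing the data. Named genes were the 10 members, Lgmn, Cst3, Cstb and Cst7, library checks, and up to 2 genes per list with the smallest p among those passing in HDM against PBS, and likewise among those in SF-3-030+HDM against HDM; Marco, Ctsa and the osteoclast and fibroblast markers named fall outside this rule and were named after their values were seen. Members and lists were chosen with earlier results of these data known.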

Additional observations from a re-analysis of the deposited data

How the results depend on the processing

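Counts of cathepsins called depended on the libraries used and on the model and scaling. The replicate block and the Y-linked covariate each gave 4 in HDM against PBS, and upper-quartile scaling gave 5. In HDM against PBS 6 became 3 without the 3 libraries with Y-linked expression and 2 without the 3 with most background reads, and leaving out 1 library gave 3 to 6; Ctsk and Ctss were called in every alternative. In SF-3-030+HDM against HDM 2 became 1 with limma-voom, the replicate block, the Y-linked covariate, without the Y-linked libraries or without those with most background reads, 0 with the background covariate, 3 with DESeq2 (2 higher and Ctsd lower), and 0 to 2 without 1 library; without SF-3-030+HDM replicate 3 the 1 call was Ctsd, lower. In SF-3-030+HDM against PBS 6 became 5 to 7. The cause was not tested. Dropping the Y-linked libraries leaves 1 HDM library, assumed to vary like the others.

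Directions that turned were all of differences that did not pass. In HDM against PBS, Ctsw was at -0.02 without the Y-linked libraries. In SF-3-030+HDM against HDM, Ctsk was at -0.02 with upper-quartile scaling, -0.15 with the background covariate, and between -0.16 and 0.32 without 1 library; Ctsw was at -0.02 with upper-quartile scaling; Ctsb was at -0.05 with the background covariate; Ctsc was at 0.01 without SF-3-030+HDM replicate 1 or 2 (lowest without 1 library, -0.47); Ctss was at 0.10 without the Y-linked libraries and between -0.35 and 0.08 without 1 library. In SF-3-030+HDM against PBS, Ctsc was at -0.13 with the background covariate. Of 660 values of members, 601 kept direction and side of the threshold.

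Over all genes, 685 were called in HDM against PBS (243 to 1466 over the alternatives), 2491 in SF-3-030+HDM against HDM (543 to 5303) and 7842 in SF-3-030+HDM against PBS (2632 to 10005). Libraries with the same replicate number had correlations of -0.63 to 0.19 between their deviations from group means. With 3 or 4 libraries in each group, these correlations cannot decide whether libraries were paired. The replicate block called 249, 796 and 2632 genes in the same comparisons. Upper-quartile scaling moved the median of all genes to -0.15, -0.19 and -0.31. The precision is limited by the 3 or 4 libraries in each group.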
